A study of Mus musculus with 12 samples.

Results

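The comparison described here is the addition of ICI to estradiol in the mouse mammary gland. ICI (fulvestrant) is a pure estrogen receptor antagonist that also marks the receptor for degradation. One single-cell RNA library, VCD_E2_ICI, was set against the library of mice given estradiol alone, VCD_E2, and against VCD_High_PBDE_E2, which also had estradiol without ICI. A barcode counted as a cell where it had 500 or more genes, 1000 or more UMIs (unique molecular identifiers, each a counted molecule) and no more than 5% of its UMIs from mitochondrial genes. Fibroblasts were cells with at least 20 UMIs of Col1a1, Col1a2 and Col3a1 together and none of Ptprc, Pecam1 or Epcam. Immune cells had at least 1 UMI of Ptprc and none of Pdgfra or Epcam. VCD_E2_ICI held 1983 fibroblasts and 469 immune cells, which is 2452 of the 39401 cells that passed the same gates in the 12 libraries of the series.

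All 3 groups were female C57BL/6J mice aged 43 weeks that had received VCD (4-vinylcyclohexene diepoxide, which destroys ovarian follicles) by intraperitoneal injection at 160 mg per kg per day for 15 days. VCD_E2 then had 17β-estradiol (E2) at 1 µg per animal per day for 1 week. VCD_E2_ICI had the same E2 and 5 mg of ICI per animal, given once when E2 began. VCD_High_PBDE_E2 had the same E2 and a diet with the flame retardants PBDE-47, PBDE-100 and PBDE-153 at 1, 0.056 and 0.126 mg per kg per day for 1 week, while VCD_E2 and VCD_E2_ICI ate matched food with the solvent. Hormones were given in sesame oil. In names of other libraries Low stands for a low PBDE dose, not for low E2. VCD_Low_PBDE, VCD_Low_E2 and VCD_Low_E2_P4 had the same 3 PBDEs at 0.05, 0.0028 and 0.0063 mg per kg per day for 20 weeks. All libraries with E2 had 1 µg, and P4 (progesterone) was at 1 mg per animal per day. VCD_High_PBDE and VCD_High_PBDE_E2_P4 had the high PBDE dose. VCD_Vehicle and VCD_Vehicle_NormEnv had VCD without hormone or PBDE, and Intact had no VCD, hormone or PBDE. Each group is 1 library, and the number of animals behind a library is not given in the sources used here. There is therefore no replicate error and no test, and each interval below is a 95% interval that covers counting error only. The names of the deposited files carry 1 of 2 suffixes. VCD_E2 is among the 5 libraries with the first and VCD_E2_ICI and VCD_High_PBDE_E2 are among the 7 with the second, so ICI and suffix cannot be told apart against VCD_E2, and ICI and PBDE cannot be told apart against VCD_High_PBDE_E2. A difference is called here against both libraries wherever possible.

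Estradiol acts through the nuclear receptor estrogen receptor alpha (Esr1), which binds estrogen response elements in DNA and raises transcription of genes such as the progesterone receptor. In the mammary gland, hormone-sensing epithelial cells and part of the stromal fibroblasts carry the receptor, and amphiregulin from epithelium and matrix from fibroblasts take part in duct growth. ICI leaves the receptor transcript to be made while it blocks and destroys the protein, so the mRNA level of Esr1 is no measure of the drug's action.

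The libraries held 44431498 UMIs (VCD_E2_ICI), 84948384 (VCD_E2) and 50137572 (VCD_High_PBDE_E2), within the range of 41737881 to 109224969 over the 12 libraries. The median fibroblast had 14703, 19626 and 17140 UMIs in that order, and the median immune cell 5833, 6971 and 7419. Median mitochondrial shares of fibroblasts were between 2.74% and 3.05%. The 3 libraries shared between 1 and 7 cell barcodes per pair. In the summed fibroblasts of VCD_E2_ICI the 6 fibroblast markers came to 32179 CPM (counts per 1000000 UMIs of the summed cells), against at most 76.4 CPM for each marker list of another cell type except erythrocytes (1247 CPM). Col1a1, Col1a2 and Col3a1 are among the 6 markers and set the gate, which also excludes Ptprc, Pecam1 and Epcam. This contrast is thus in part fixed by the gate. The labelled mammary gland was represented by few epithelial cells, 7 in VCD_E2_ICI, 42 in VCD_E2 and 9 in VCD_High_PBDE_E2.

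The sequences that bear on a receptor antagonist are promoters of the 2 classical receptor targets and of genes that were low with ICI. RefSeq promoter windows of GRCm38.p6, 250 bases before to 50 bases after a transcription start, were searched on both strands for the palindromic estrogen response element GGTCANNNTGACC and for its single arm GGTCA, which every copy of the palindrome also holds. On the strand printed, an arm of the other strand reads TGACC. Greb1 is shown for 2 of its starts, at chr12:16800837-16801136 and chr12:16757190-16757489 (both minus strand). Pgr is at chr9:8899583-8899882 (plus strand), Il1rl1 at chr1:40439379-40439678 (plus strand) and Tpm2 at chr4:43523505-43523804 (minus strand). Il1rl1 and Tpm2 were picked to show windows that hold the arm. The other Il1rl1 start, and the windows of Lrrc15, Sdc1 and P4ha3, which were also among the lowest genes, held none. Capitals mark the arm of the element.
Greb1, outer start: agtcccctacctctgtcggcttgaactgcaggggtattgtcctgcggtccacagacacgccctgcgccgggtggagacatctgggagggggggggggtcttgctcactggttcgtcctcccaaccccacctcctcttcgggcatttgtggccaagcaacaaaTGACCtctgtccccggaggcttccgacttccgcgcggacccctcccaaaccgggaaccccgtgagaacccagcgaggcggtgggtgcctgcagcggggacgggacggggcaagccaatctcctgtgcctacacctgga
Greb1, inner start: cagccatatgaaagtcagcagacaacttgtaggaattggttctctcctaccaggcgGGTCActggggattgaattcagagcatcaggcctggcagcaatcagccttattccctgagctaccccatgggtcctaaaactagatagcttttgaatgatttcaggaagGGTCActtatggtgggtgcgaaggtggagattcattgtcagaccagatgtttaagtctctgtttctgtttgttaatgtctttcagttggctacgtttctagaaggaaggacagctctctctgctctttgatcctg
Pgr: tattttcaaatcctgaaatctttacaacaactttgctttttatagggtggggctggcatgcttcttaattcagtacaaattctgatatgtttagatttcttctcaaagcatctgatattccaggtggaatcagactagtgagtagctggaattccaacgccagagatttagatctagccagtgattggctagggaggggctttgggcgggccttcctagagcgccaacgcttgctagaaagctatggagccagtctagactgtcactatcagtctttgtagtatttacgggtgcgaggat
Il1rl1: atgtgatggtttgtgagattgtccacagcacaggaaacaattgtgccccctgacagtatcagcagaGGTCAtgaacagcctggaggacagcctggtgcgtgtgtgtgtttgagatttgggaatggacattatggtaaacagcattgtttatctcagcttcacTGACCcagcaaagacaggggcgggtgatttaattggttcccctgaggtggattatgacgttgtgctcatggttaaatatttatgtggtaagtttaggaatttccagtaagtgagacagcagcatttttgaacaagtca
Tpm2: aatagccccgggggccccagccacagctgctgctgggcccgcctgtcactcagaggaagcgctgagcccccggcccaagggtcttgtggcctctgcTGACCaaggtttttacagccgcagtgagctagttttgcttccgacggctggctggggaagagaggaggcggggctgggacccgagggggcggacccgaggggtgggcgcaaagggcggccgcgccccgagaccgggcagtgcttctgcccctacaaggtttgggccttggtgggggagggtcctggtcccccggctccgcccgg
The palindrome was found in none of these windows and in 23 of all 32851 promoter windows (0.0700%), while the single arm was in 40.5% of all windows, so an arm in a window is common. The Pgr window held neither. Of the 37 hormone-raised fibroblast genes described below, 25 had a promoter entry, too few for a statement on that set. These matches are letters in a window and not sites.

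In fibroblasts the transcripts of Pgr and Greb1 were lower in VCD_E2_ICI than in any of the other 11 libraries, while the receptor transcript Esr1 was not lower. Pgr (ENSMUSG00000031870, chr9:8899833-8968611, GRCm38), the progesterone receptor, was at 11.0 CPM in VCD_E2, 12.4 CPM in VCD_High_PBDE_E2 and 1.54 CPM in VCD_E2_ICI. The last value rests on 45 UMIs against 570 in VCD_E2 and 455 in VCD_High_PBDE_E2. Pgr was thus 7.12-fold lower than in VCD_E2 (interval 5.25 to 9.87) and 8.09-fold lower than in VCD_High_PBDE_E2 (5.95 to 11.2). Greb1 (ENSMUSG00000036523, chr12:16670615-16800886), a coactivator of the estrogen receptor and itself a receptor target, was at 9.94, 9.79 and 1.27 CPM in the same order. That made it 7.85-fold lower than in VCD_E2 (5.62 to 11.3) and 7.74-fold lower than in VCD_High_PBDE_E2 (5.51 to 11.2). The 2 libraries with E2 and no ICI lay close to each other for both genes, and VCD_E2_ICI lay far below them.

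Both genes were also below the VCD libraries that had no hormone. Over those 4 libraries Pgr ranged from 4.36 to 12.5 CPM and Greb1 from 3.75 to 8.00 CPM. The lowest values outside VCD_E2_ICI were those of VCD_Low_E2_P4, 3.08 CPM for Pgr and 3.69 CPM for Greb1, and the highest were 35.2 and 33.5 CPM in VCD_Low_E2. The E2 libraries without ICI thus lay on both sides of the hormone-free ones for both genes, and VCD_E2_ICI was the lowest of the 12 libraries. Mean levels of Pgr and Greb1 were under the limit of 10 CPM used for the counts of genes below, so neither is in those counts.

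Fewer cells had any transcript. Pgr was detected in 42 of 1983 fibroblasts of VCD_E2_ICI (2.12%, exact binomial interval 1.53 to 2.85), in 11.6% of those of VCD_E2 and in 10.4% of those of VCD_High_PBDE_E2. Greb1 was detected in 1.46%, 12.7% and 11.5% of fibroblasts in that order. Each cell was then thinned to 5000 UMIs, with shallower cells left out (355 of all filtered cells in VCD_E2_ICI, 358 in VCD_E2 and 256 in VCD_High_PBDE_E2). The gates were applied again to the thinned counts, which gave other cell sets of 1863, 2594 and 1885 fibroblasts. The shares were then 0.537%, 3.86% and 3.40% for Pgr and 0.376%, 4.24% and 3.82% for Greb1. Immune cells, which should lack both, gave the background. In VCD_E2_ICI, 1 of 469 immune cells had Pgr (0.213%, at a median of 5833 UMIs) and 0 of 469 had Greb1, where the exact interval reaches 0.783%. Among thinned immune cells of VCD_E2_ICI, 0 of 281 had Pgr and 0 of 281 had Greb1, where the interval reaches 1.30%. At this depth the thinned shares of its fibroblasts, with intervals of 0.258 to 0.985% for Pgr and 0.151 to 0.773% for Greb1, were not separable from background. Thinned immune cells of VCD_E2 had Pgr in 2 of 373 (0.536%) and Greb1 in 4 of 373 (1.07%). In those of VCD_High_PBDE_E2 both genes were found in 0 of 212. Esr1 was detected in 51.3% of fibroblasts in VCD_E2_ICI, 55.1% in VCD_E2 and 50.2% in VCD_High_PBDE_E2.

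**Figure D1:**
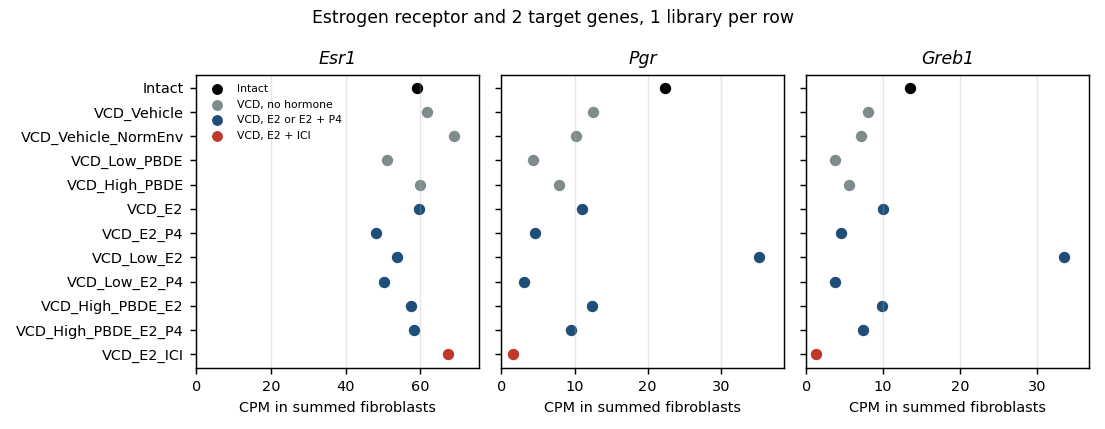
Summed fibroblast level (CPM) of Esr1, Pgr and Greb1 in each of the 12 libraries, 1 point per library. Pgr and Greb1 are lowest in VCD_E2_ICI (1.54 and 1.27 CPM), while Esr1 there (67.4 CPM) is within the range of the others (48.1 to 68.9 CPM).

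Among the steroid receptors of fibroblasts, Esr1 (ENSMUSG00000019768, chr10:4611593-5005614) was at 59.5, 57.4 and 67.4 CPM in VCD_E2, VCD_High_PBDE_E2 and VCD_E2_ICI. The glucocorticoid receptor gene Nr3c1 was at 127, 130 and 118 CPM. Neither gene differed by 2-fold. Levels were also taken in the Dpp4-marked fibroblasts and the others, which the study distinguishes. In cells with at least 3 UMIs of Dpp4 and Pi16 together, Pgr was at 16.7, 22.9 and 2.59 CPM and Greb1 at 13.4, 14.4 and 1.68 CPM. In cells with neither marker the levels were 1.15, 0.591 and 0.254 CPM for Pgr, the last from 2 UMIs, and 3.91, 3.74 and 1.02 CPM for Greb1. Greb1 was lower with ICI in both populations, while Pgr was mainly in the Dpp4/Pi16 positive cells of all 3 libraries and too low in the others to compare.

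A wider list held 30 textbook estrogen receptor targets, drawn largely from epithelial and tumour cells. Its members above the 10 CPM limit were not lower with ICI in fibroblasts as a set, and the rest were not compared. Of the 14 that passed the 10 CPM limit, 1 was lower and 7 were higher in VCD_E2_ICI than in both E2 libraries, beside 47.3% lower and 20.9% higher among all genes, and none was 2-fold lower than in VCD_E2. The complement gene C3 was at 1053, 1425 and 2168 CPM and the small heat shock gene Hspb8 at 74.2, 104 and 152 CPM in VCD_E2, VCD_High_PBDE_E2 and VCD_E2_ICI, and both were 2-fold higher than in VCD_E2 only. The retinoic acid hydroxylase Cyp26b1 was at 77.0, 20.5 and 90.9 CPM, so the 2 E2 libraries differed from each other by more than VCD_E2 differed from VCD_E2_ICI. The medians of the 14 log2 ratios (on the scale log2(CPM + 1), as are all log2 ratios here) were 0.31 against VCD_E2 and 0.18 against VCD_High_PBDE_E2, beside -0.04 and -0.09 over all genes.

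Across the 7829 fibroblast genes whose mean over the 3 libraries was 10 CPM or more, 85 were at least 2-fold lower in VCD_E2_ICI than in VCD_E2 (1.09%) and 41 at least 2-fold higher (0.524%). Against VCD_High_PBDE_E2 the counts were 94 lower (1.2%) and 60 higher (0.766%). The 2 E2 libraries without ICI differed from each other to a like extent, with 67 genes lower (0.856%) and 68 higher (0.869%) in VCD_High_PBDE_E2 than in VCD_E2. The number of genes past 2-fold thus does not set VCD_E2_ICI apart. Against both E2 libraries in the same direction, 34 genes were 2-fold lower (0.434%) and 10 were 2-fold higher (0.128%). With VCD_Low_E2 as the second E2 library these were 69 and 21, and without a CPM limit 109 and 18 of 19421 genes. By any amount, 3703 genes were lower than in both (47.3%) and 1638 were higher than in both (20.9%), an imbalance against which the lists below have to be read.

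A gene set that did not use the 3 libraries was made from the other libraries. It holds the 37 fibroblast genes that were at least 2-fold higher in the hormone library of each of 3 pairs, VCD_E2_P4 against VCD_Vehicle, VCD_High_PBDE_E2_P4 against VCD_High_PBDE and VCD_Low_E2 against VCD_Vehicle_NormEnv (P4 is progesterone), averaging 10 CPM or more over those 6. The pair of VCD_Low_E2 and VCD_Vehicle_NormEnv also differed in PBDE, which only VCD_Low_E2 had. Of these hormone-raised genes, 34 of 37 were lower in VCD_E2_ICI than in both E2 libraries, beside 47.4% of all 7756 genes that passed the same limit. At least 2-fold lower than both were 21 of 37, beside 0.503% of all genes. The median log2 ratio was -1.36 against VCD_E2 and -1.30 against VCD_High_PBDE_E2. For VCD_High_PBDE_E2 against VCD_E2 the median was 0.03, with 18 of the 37 lower. Even so, 9 of the 37 were at least 2-fold lower in VCD_High_PBDE_E2 than in VCD_E2, beside 0.856% of the 7829 genes counted above. VCD_E2_ICI was below these 2 libraries and also below VCD_Low_E2_P4, an E2 library that took no part in the choice, in 34 of the 37, beside 40.0% of all 7756 genes.

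The summed level of the 37 genes was 897 CPM in VCD_E2_ICI, 2559 CPM in VCD_E2 and 1858 CPM in VCD_High_PBDE_E2. VCD_Low_E2_P4 had 2590.2 CPM. Among libraries without added hormone, VCD_Low_PBDE, which was not used to choose the genes, had 662 CPM and the Intact library 1383 CPM, and the 3 used to choose them had between 651 and 941 CPM. The level with ICI was above that of VCD_Low_PBDE and below that of Intact mice. It was inside the range of all VCD libraries without hormone, but the upper end of that range was a library used to choose the genes. Such libraries are low in these genes by the way the set was made. For 33 of the 37 genes VCD_E2_ICI was nearer to VCD_Low_PBDE than to VCD_E2, beside 51.0% of all 7756 genes, with a median log2 ratio to VCD_Low_PBDE of 0.42.

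**Figure D2:**
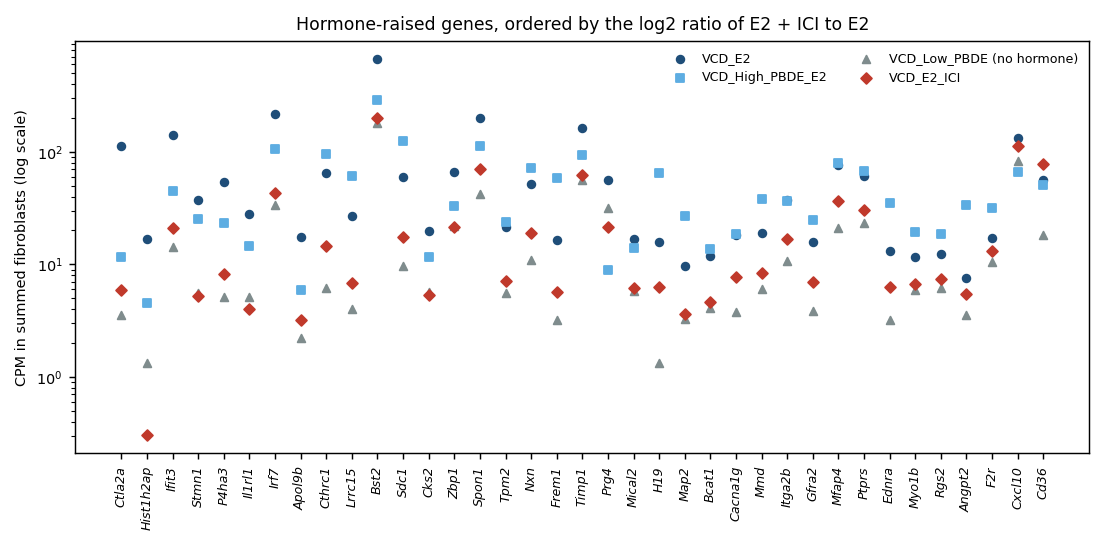
Level (CPM, log axis) of each of the 37 hormone-raised fibroblast genes in VCD_E2, VCD_High_PBDE_E2, VCD_Low_PBDE and VCD_E2_ICI, 1 point per gene and library, none of which was used to choose the genes. VCD_E2_ICI lies below both E2 libraries for 34 of the 37 genes.

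The 6 of these genes with the highest mean over the 6 choosing libraries show how unequal the 2 E2 libraries were. Bst2 (tetherin, an interferon-induced membrane protein) was at 659.5 CPM in VCD_E2, 289 in VCD_High_PBDE_E2 and 198 in VCD_E2_ICI. Irf7, a transcription factor that drives interferon production, was at 217, 106 and 42.6 CPM. Ctla2a, a cysteine protease inhibitor, was at 113, 11.6 and 5.88 CPM, so most of its difference from VCD_E2 was also present in VCD_High_PBDE_E2. The matrix protein gene Spon1 was at 198, 112 and 70.1 CPM, and Timp1, an inhibitor of matrix metalloproteinases, at 161, 93.0 and 62.3 CPM. In each of these 5 genes VCD_E2_ICI was lowest and VCD_High_PBDE_E2 was between. Cxcl10, an interferon-induced chemokine, was at 134, 66.0 and 112 CPM and is 1 of the 3 exceptions. The others, named after their values were seen, were Prg4 (55.8, 8.89 and 21.4 CPM) and the fatty acid transporter Cd36 (56.4, 51.0 and 78.0 CPM, the highest of all 12 libraries in VCD_E2_ICI). Without the 5 members of the interferon list, 30 of the other 32 genes were lower than in both E2 libraries.

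The hormone-raised genes were low in both fibroblast populations. In Dpp4/Pi16 positive cells 25 of the 28 that passed the limit were lower than in both E2 libraries (41.4% of all 7788 genes there), with medians of -1.59 and -0.92. In cells without both markers 31 of 32 were lower (47.5% of all 7608 genes), with medians of -0.97 and -1.63. The opposite set, genes at least 2-fold lower in the hormone library of all 3 pairs, held only Tgfbi, Insig1, Vtn and G0s2. Of these 4, 3 were higher in VCD_E2_ICI than in both E2 libraries, beside 20.9% of all 7756 genes. G0s2, an inhibitor of lipolysis, was at 20.5, 36.6 and 31.2 CPM and is the exception. Vtn (vitronectin, an adhesion protein) was at 25.6, 31.4 and 61.7 CPM.

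Of the 12 fibroblast genes furthest below both E2 libraries, 7 belonged to the hormone-raised set, which holds 37 of the 7756 genes that passed its limit. Cthrc1 (ENSMUSG00000054196, chr15:39076932-39087121), a secreted protein of collagen-producing fibroblasts, was at 65.1 CPM in VCD_E2, 94.9 in VCD_High_PBDE_E2 and 14.5 in VCD_E2_ICI. It was 4.50-fold lower than in VCD_E2 (4.07 to 4.99) and 6.56-fold lower than in VCD_High_PBDE_E2 (5.93 to 7.28). The VCD libraries without hormone had between 5.80 and 9.22 CPM, below the level with ICI. Stmn1, a microtubule-destabilizing protein of dividing cells, was at 37.3, 25.2 and 5.20 CPM, the last being the lowest of the 12 libraries and close to the hormone-free range of 5.61 to 7.21 CPM. Lrrc15, a membrane protein of activated fibroblasts, was at 26.8, 60.9 and 6.80 CPM. Sdc1 (syndecan-1, a heparan sulfate proteoglycan) was at 59.4, 125 and 17.4 CPM. P4ha3, a subunit of the collagen prolyl hydroxylase, was at 54.0, 23.4 and 8.17 CPM. Il1rl1, the receptor of interleukin 33, was at 27.8, 14.5 and 4.00 CPM, and 16.2% of its 117 UMIs in VCD_E2_ICI came from 1 cell. The tropomyosin gene Tpm2 was at 21.4, 23.7 and 7.15 CPM.

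Outside the hormone-raised set, Ngfr, the low-affinity neurotrophin receptor, was at 23.8, 10.1 and 1.91 CPM (56 UMIs with ICI). The copper-dependent ferroxidase Heph was at 29.4, 25.2 and 6.22 CPM. A further 3 genes were below all other 11 libraries, those without hormone included. Cdh11 (cadherin-11, the main cadherin of fibroblasts) was at 146, 145 and 54.2 CPM, against 63.2 to 157 CPM in the other libraries. The metalloproteinase gene Adamts15 was at 26.9, 29.4 and 8.51 CPM, against 13.05 to 29.4 CPM. C77370 was at 9.76, 18.1 and 2.97 CPM, against 6.13 to 18.1 CPM. Cdh11 was low in both populations, at 119, 91.7 and 32.0 CPM in Dpp4/Pi16 positive cells and at 178, 199 and 79.5 CPM in cells without these markers.

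Of the 10 genes at least 2-fold higher than in both E2 libraries, Igfbp3 stood furthest out. Igfbp3 (ENSMUSG00000020427, chr11:7206086-7213923), the main carrier of insulin-like growth factors, was at 109 CPM in VCD_E2, 116 in VCD_High_PBDE_E2 and 489 in VCD_E2_ICI. It was 4.47-fold higher than in VCD_E2 (4.34 to 4.62) and 4.21-fold higher than in VCD_High_PBDE_E2 (4.07 to 4.36), and it was detected in 1171 of the 1983 fibroblasts. The other libraries ranged from 109 to 246 CPM, and those without hormone from 163 to 246 CPM, so the level with ICI was above every library with or without hormone. It was 504 CPM in Dpp4/Pi16 positive cells and 481 CPM in cells without these markers, against 116 and 88.5 CPM in VCD_E2. Gdf15, a stress-induced cytokine, was at 8.32, 5.53 and 25.6 CPM, also above the other 11 libraries (3.20 to 9.64 CPM), and 10.0% of its UMIs came from 1 cell. It was under 10 CPM in both E2 libraries and so passed the limit on the mean only through VCD_E2_ICI.

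The remaining higher genes were within the range of other libraries or came with another cell type. Tgfbi, a matrix protein, was at 94.3, 92.1 and 255 CPM, inside the hormone-free range of 227 to 322 CPM. Hmcn2, a basement membrane protein, was at 27.3, 16.5 and 77.5 CPM (hormone-free 32.5 to 79.2 CPM). The secreted glycoprotein gene Myoc was at 332, 313 and 853 CPM, the carboxylesterase gene Ces1d at 8.03, 9.71 and 21.5 CPM, and the AP-1 subunit gene Fosl1 at 19.0, 19.2 and 40.8 CPM. These 3 also lay inside their hormone-free ranges, and Ces1d passed the 10 CPM limit only through VCD_E2_ICI. The haemoglobin genes Hba-a1 (130, 58.5 and 304 CPM), Hba-a2 (95.3, 48.3 and 220.4 CPM) and Hbb-bt (64.8, 20.2 and 141 CPM) are not made by fibroblasts. A single cell gave 30.7%, 25.8% and 37.9% of their UMIs in VCD_E2_ICI, and the 5 erythrocyte markers summed to 1247 CPM there against 628 and 255 CPM. Hba-a1, Hba-a2 and Hbb-bt are themselves 3 of those 5 markers.

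**Figure D3:**
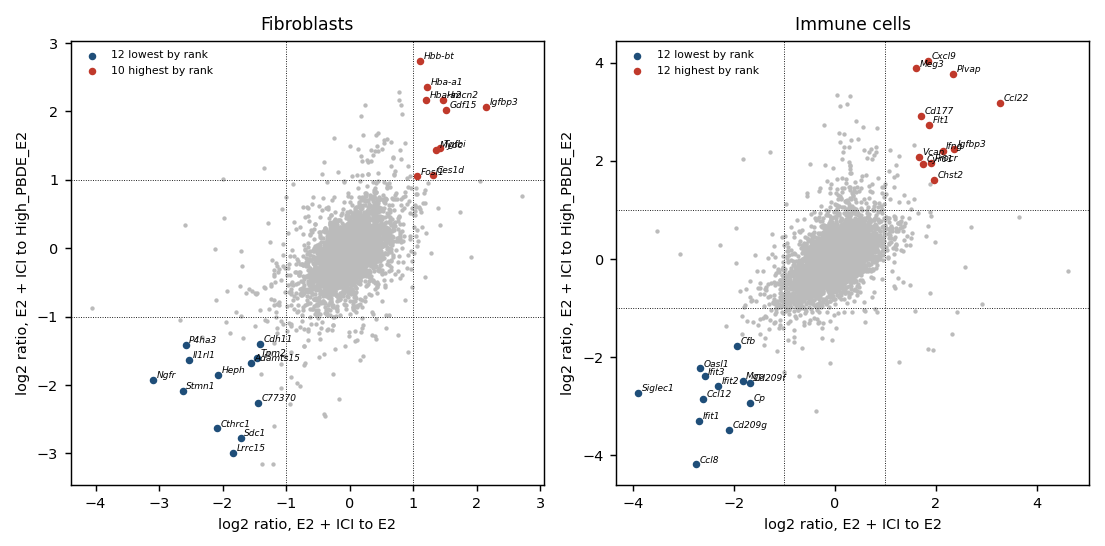
Log2 ratio of VCD_E2_ICI to VCD_E2 (horizontal) and to VCD_High_PBDE_E2 (vertical), on the scale log2(CPM + 1), for each tested gene of fibroblasts (left) and immune cells (right), with the 2-fold limits drawn and the named genes labelled. Genes past both limits are the 34 lower and 10 higher ones in fibroblasts and the 41 lower and 29 higher ones in immune cells.

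Interferon-induced genes were lower with ICI in fibroblasts, though much of the difference from VCD_E2 was shared by VCD_High_PBDE_E2. Of the 42 that passed the limit, 36 were lower than in both E2 libraries and 3 higher, beside 47.3% and 20.9% of all genes. The median log2 ratio was -0.85 against VCD_E2 and -0.30 against VCD_High_PBDE_E2, and VCD_High_PBDE_E2 against VCD_E2 gave -0.60. At least 2-fold lower than in VCD_E2 were 17, of which 3 were also 2-fold lower than in VCD_High_PBDE_E2. These 3 were Irf7, the antiviral gene Ifit3 (140, 45.1 and 21.2 CPM) and its neighbour Ifit3b (22.9, 12.1 and 5.23 CPM, named after its values were seen). Ifit3 and Ifit3b are near-identical copies, so reads may be split between them, and 34.0% of the Ifit3b UMIs in VCD_E2_ICI came from 1 cell. The list summed to 2905 CPM in VCD_E2_ICI, 6432 in VCD_E2 and 3880.1 in VCD_High_PBDE_E2, while the hormone-free VCD libraries had 2513 to 3791 CPM. The level with ICI was thus inside the hormone-free range and that of VCD_High_PBDE_E2 just above it. Other E2 libraries without ICI had 5843 to 6800 CPM, a range that held VCD_E2 and lay above VCD_High_PBDE_E2.

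The interferon genes were further below VCD_E2 in the Dpp4/Pi16 positive fibroblasts. There 37 of 41 were lower than in both E2 libraries, beside 41.4% of all 7788 genes, with medians of -1.14 and -0.44 and summed levels of 3497 CPM with ICI, 8516 CPM in VCD_E2 and 5110.3 CPM in VCD_High_PBDE_E2. In cells without Dpp4 and Pi16, 25 of 40 (62.5%) were lower, beside 47.5% of all 7608 genes, with medians of -0.22 and -0.17, and the sums were 2260.4, 2913 and 2619 CPM. The Dpp4/Pi16 positive share of fibroblasts was 47.9% in VCD_E2_ICI, 52.8% in VCD_E2 and 49.9% in VCD_High_PBDE_E2, and 37.8%, 40.0% and 36.1% in thinned cells, so the order of VCD_E2_ICI and VCD_High_PBDE_E2 turned with depth.

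Most collagen genes were lower with ICI. Of 20 that passed the limit, 16 were lower than in both E2 libraries and 1 was higher, beside 47.3% and 20.9% of all genes, with medians of -0.41 and -0.52. None was 2-fold lower than in VCD_E2 and 3 were 2-fold lower than in VCD_High_PBDE_E2. In Dpp4/Pi16 positive cells 5 of 20 were 2-fold lower than in VCD_E2 and 3 than in both. Among all 7788 genes there the counts were 130 and 39. Col5a2, a fibril collagen, was at 1155 CPM in VCD_E2, 1310.4 in VCD_High_PBDE_E2 and 607 in VCD_E2_ICI, and Col14a1, which binds fibrils, at 462, 462 and 575 CPM. The 29 collagens summed to 21428 CPM with ICI against 31676 and 38686 CPM, and the hormone-free VCD libraries had 19456 to 28496 CPM. Since 3 collagens set the gate, these sums are over cells chosen in part by collagen. Among 38 other matrix genes 20 were lower than both and 8 higher (medians -0.18 and -0.21), near the background of 47.3% and 20.9%. The elastic fibre genes Fbn2 (14.6, 11.95 and 5.23 CPM) and Mfap4 (77.0, 80.3 and 36.8 CPM, a hormone-raised gene) were 2-fold lower than both.

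Genes of cholesterol synthesis and uptake were higher with ICI than in both E2 libraries in 16 of 18, beside 20.9% of all genes, with none lower. The medians were 0.34 against VCD_E2 and 1.35 against VCD_High_PBDE_E2, and VCD_High_PBDE_E2 against VCD_E2 had a median of -0.96. Insig1, which holds back cholesterol synthesis and is also in the hormone-lowered set, was at 145, 91.4 and 267 CPM, and Idi1, an isoprenoid enzyme, at 84.9, 34.1 and 149 CPM. For these genes the size of the difference depended on which E2 library was used. The list summed to 1215 CPM with ICI, and the hormone-free VCD libraries ranged from 605 to 1345 CPM.

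Immediate early genes, which respond within minutes to growth factors and to tissue handling, were higher with ICI than in both E2 libraries in 22 of 25, beside 20.9% of all genes (medians 0.44 and 0.66). The transcription factor gene Maff was at 161, 193 and 335 CPM. Heat shock genes were higher in 10 of 14, beside the same 20.9% (medians 0.19 and 0.34), with Hspa1b at 255, 357 and 544 CPM. The part of tissue handling in these 2 lists was not tested. Complement genes were higher in 8 of 10, again beside 20.9% (medians 0.49 and 0.40). Glucocorticoid receptor targets had medians of opposite sign, 0.56 against VCD_E2 and -0.50 against VCD_High_PBDE_E2. Among them Tsc22d3 was at 39.1, 123 and 72.1 CPM and Zbtb16 at 18.3, 77.5 and 31.5 CPM, with VCD_E2_ICI between the 2 E2 libraries.

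Of 12 chemokine genes in fibroblasts 7 were higher and 2 lower than in both E2 libraries (medians 0.23 and 0.51). Of 19 genes of the IGF, VEGF and CCN families 9 were higher and 3 lower (medians 0.18 and 0.18), and of 14 adipocyte and lipid uptake genes 4 were higher and 4 lower (medians 0.33 and -0.23). The background is 20.9% higher and 47.3% lower. Ccl8, a monocyte-attracting chemokine, was at 248, 99.2 and 64.2 CPM. Figf (vascular endothelial growth factor D) was at 158, 197 and 93.7 CPM. Apoe, which carries lipids, was at 355, 327 and 684 CPM, the highest of the 12 libraries in VCD_E2_ICI (others 196 to 670.2 CPM). Igfbp4, another binding protein of insulin-like growth factors, was at 553, 885 and 1004 CPM. Protein folding genes of the endoplasmic reticulum (16 of 32 lower than both, medians -0.17 and -0.04) and nuclear respiratory chain genes (32 of 75 lower than both, medians -0.14 and 0.01) were near the background of 47.3%.

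In immune cells, 138 of 7620 genes were at least 2-fold lower in VCD_E2_ICI than in VCD_E2 (1.81%) and 117 at least 2-fold higher (1.54%). Against VCD_High_PBDE_E2 the counts were 102 lower (1.34%) and 161 higher (2.11%), and VCD_High_PBDE_E2 against VCD_E2 gave 138 lower (1.81%) and 76 higher (0.997%). Against both E2 libraries 41 genes were 2-fold lower (0.538%) and 29 were 2-fold higher (0.381%). These counts, and the number of genes tested, depended on the processing. Lower were 26 of 7641 genes (subsets weighted equally) to 116 of 16538 (no CPM limit), with 100 of 7714 in thinned cells. Higher were 17 of 7576 genes (at least 2 Ptprc UMIs) to 160 of 16538 (no CPM limit). By any amount 30.9% of genes (2352) were lower and 38.5% (2933) higher than in both. These sums mix cell types, and the mix differed. Macrophage-like cells (at least 5 UMIs of C1qa, C1qb and C1qc together) made up 43 of 469 immune cells in VCD_E2_ICI, 9.17% (exact binomial interval 6.71 to 12.2). They were 16.2% (13.2 to 19.7) in VCD_E2 and 17.99% (13.7 to 22.9) in VCD_High_PBDE_E2. T cell-like cells (at least 2 UMIs of Cd3d, Cd3e and Cd3g together) made up 40.1% (35.6 to 44.7), 26.9% (23.1 to 30.9) and 35.6% (30.1 to 41.5). In thinned cells the macrophage-like shares were 11.4%, 18.8% and 22.6% and the T cell-like shares 35.2%, 23.1% and 25.5%. The macrophage-like share was lower with ICI than in both E2 libraries and the lowest of the 12, though not the lowest in thinned cells (Intact 10.2%, VCD_Vehicle 11.0% and VCD_Vehicle_NormEnv 10.0%) or at a limit of 10% mitochondrial UMIs (8.18% against 7.86% in Intact). The E2 libraries did not separate as a group, since the other E2 libraries ranged from 10.6 to 29.6% and the hormone-free VCD libraries from 10.1 to 15.6%.

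**Figure D4:**
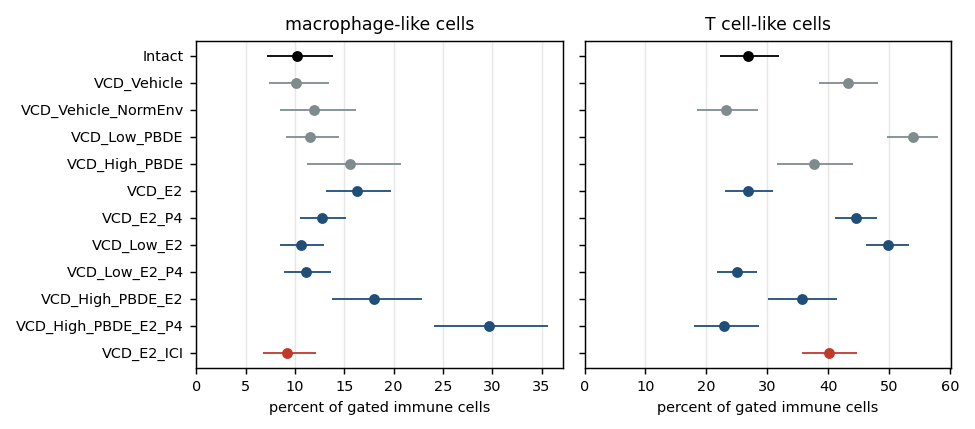
Share (%) of gated immune cells that were macrophage-like (left) and T cell-like (right) in each of the 12 libraries, with exact binomial intervals that cover counting error only. VCD_E2_ICI has 9.17% macrophage-like cells, below VCD_E2 (16.2%) and VCD_High_PBDE_E2 (17.99%), and 40.1% T cell-like cells.

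Of the 12 immune genes furthest below both E2 libraries, 8 were at their lowest of all 12 libraries. The ranking on low values in VCD_E2_ICI favours such a place, and its share over all genes was not counted. Ccl8 (ENSMUSG00000009185, chr11:82115185-82116799) was at 219 CPM in VCD_E2, 594 in VCD_High_PBDE_E2 and 31.8 in VCD_E2_ICI, where 1 of the 21 cells with a UMI gave 30.4%. The related chemokine gene Ccl12 was at 34.6, 40.8 and 4.83 CPM. Siglec1, a sialic acid receptor of tissue macrophages that interferon also induces, was at 25.3, 10.6 and 0.762 CPM, the last from 3 UMIs, so its ratio to VCD_E2 was 0.0301 with an interval of 0.00613 to 0.0899. The lectin genes of resident macrophages Cd209g (84.3, 223 and 19.1 CPM) and Cd209f (192, 345 and 59.4 CPM) were also low. The antiviral genes Ifit1 (33.3, 51.5 and 4.32 CPM), Ifit2 (19.2, 23.3 and 3.05 CPM), Ifit3 (35.4, 30.9 and 5.08 CPM) and Oasl1 (37.8, 27.5 and 5.08 CPM) made up the interferon genes among the 12. The last 3 were the complement gene Cfb (19.4, 17.2 and 4.32 CPM), the ferroxidase gene Cp (22.5, 55.2 and 6.35 CPM) and Mgp, a matrix protein made by stromal cells (23.3, 37.1 and 5.84 CPM).

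Resident macrophage genes and interferon genes parted once the macrophage-like cells were summed alone. Over all immune cells, 20 of the 20 resident macrophage genes that passed the limit were lower than in both E2 libraries, beside 30.9% of all genes, with medians of -1.14 and -1.07, and the macrophage markers summed to 1930 CPM with ICI against 3939 and 3527 CPM. Within macrophage-like cells 7 of 20 were lower than in both, beside 39.8% of all 7350 genes there, with medians of 0.11 and -0.33. Folr2, a folate receptor of resident macrophages named after its values were seen, was at 249.9, 258 and 88.6 CPM over all immune cells but at 838, 1260.4 and 795 CPM within macrophage-like cells. The scavenger receptor gene Stab1, likewise named, was at 55.8, 59.7 and 24.1 CPM and at 195, 286 and 210.2 CPM. The summed level of the list in macrophage-like cells was 32516 CPM with ICI, 37430 in VCD_E2 and 38322 in VCD_High_PBDE_E2, within the range of 28247 to 48021 CPM over the other libraries. Over all immune cells the list summed to 6007 CPM with ICI, against 14028 in VCD_E2 and 10824 in VCD_High_PBDE_E2. As examples from other libraries, VCD_Low_E2 had 11720 CPM at a macrophage-like share of 10.6% and Intact 6080 CPM at 10.1%. In immune cells that met no subset gate the list summed to 2870 CPM with ICI against 5060 and 5214 CPM, but its members were divided, with 5 of 10 lower and 4 higher than in both (medians 0.05 and -0.16), beside 27.3% of all 7372 genes lower. Cells that met more than 1 subset gate numbered 5 with ICI, 18 in VCD_E2 and 10 in VCD_High_PBDE_E2. There 18 of 20 were lower than in both (medians -4.13 and -2.06), beside 37.2% of all 7322 genes. In T cell-like cells 4 of 8 were lower and 0 higher, beside 29.1% of all 7265 genes lower. In B cell-like cells (at least 2 UMIs of Cd79a, Cd79b and Ms4a1 together) 2 of 7 were lower and 4 higher. Among all 6533 genes there 1139 were lower (17.4%) and 1869 higher. B cell-like cells numbered only 5 with ICI, 3 in VCD_E2 and 3 in VCD_High_PBDE_E2. The part of the macrophage-like share in the sums over all immune cells was not tested.

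Interferon genes, in contrast, were low within the macrophage-like cells themselves. Over all immune cells 35 of 45 were lower than in both E2 libraries, beside 30.9% of all genes, with medians of -0.90 and -0.41. Within macrophage-like cells 38 of 44 were lower, beside 39.8%, with medians of -1.71 and -1.22. At least 2-fold lower than in VCD_E2 were 34 of the 44, beside 7.66% of all 7350 genes, and 22 were 2-fold lower than both, beside 4.11%. The list summed to 3101 CPM in VCD_E2_ICI, the lowest of the 12 libraries, against 9198 in VCD_E2 and 7506 in VCD_High_PBDE_E2. Other E2 libraries had 6844 to 11269 CPM, the hormone-free VCD libraries 3942 to 5274 CPM and Intact mice 5196 CPM. VCD_High_PBDE_E2 was here among the E2 libraries, unlike in fibroblasts. Ifit1 was at 62.1, 37.7 and 6.86 CPM (83, 22 and 3 UMIs) in macrophage-like cells, Siglec1 at 70.4, 48.0 and 6.86 CPM and Oasl1 at 105, 94.3 and 25.1 CPM (11 UMIs with ICI). Ccl8 was at 769, 2946 and 263 CPM. These values rest on 43, 84 and 52 cells, and a gene of 3 UMIs can come from few of them. In T cell-like cells 20 of 41 interferon genes were lower than both, beside 29.1% of all 7265 genes, with medians of -0.11 and -0.33. In the immune cells that met no subset gate, 48.6% of those in VCD_E2_ICI, 22 of 40 were lower, beside 27.3% of all 7372 genes, with medians of -0.49 and -0.24. There 10 of the 40 were 2-fold lower than in VCD_E2, beside 99 of all 7372 genes.

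**Figure D5:**
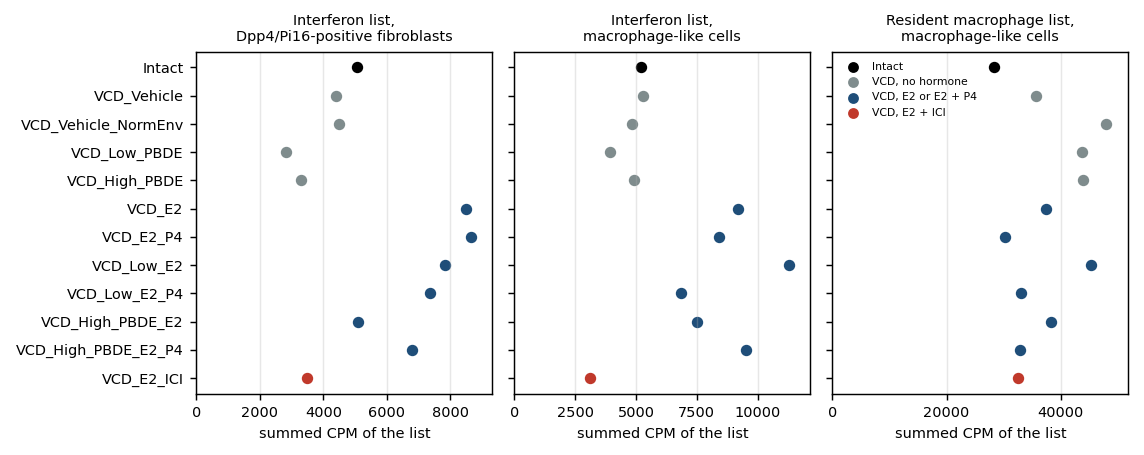
Summed level (CPM) in each of the 12 libraries of the interferon list in Dpp4/Pi16 positive fibroblasts (left), of the same list in macrophage-like cells (middle) and of the resident macrophage list in macrophage-like cells (right). VCD_E2_ICI has 3497, 3101 and 32516 CPM, against 8516, 9198 and 37430 CPM in VCD_E2.

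Complement genes were divided over all immune cells, with 7 of 14 lower and 6 higher than in both E2 libraries, beside 30.9% and 38.5% of all genes. C1qa (987, 869 and 385 CPM), C1qb, C1qc, C4b and Cfb were 2-fold lower than both, and the C1q genes define the macrophage-like gate. Higher than both were C3 (87.8, 68.3 and 153 CPM) and the inhibitor gene Serping1 (35.2, 44.3 and 75.4 CPM). Of 11 class II antigen presentation genes, 10 were lower than in both E2 libraries, beside 30.9% of all genes, 4 were 2-fold lower than in VCD_High_PBDE_E2 and 1, the class II regulator Ciita, was 2-fold lower than both (12.5, 13.4 and 4.83 CPM, 19 UMIs with ICI). The part of the smaller macrophage-like share in these values was not tested. Among the estrogen receptor targets, 4 of 15 were lower and 8 higher than in both E2 libraries, beside the same shares (medians 0.12 and 0.11). Of these 15, 0 were 2-fold lower than both and 1, Igfbp5, was 2-fold higher than both. The cell cycle gene Ccnd1, 2-fold lower than VCD_E2 only, was at 48.4, 45.3 and 22.6 CPM, the last being the lowest of the 12 libraries. Esr1 in immune cells was at 7.07, 6.52 and 4.32 CPM (17 UMIs with ICI), under the 10 CPM limit, and its ratio to VCD_E2 was 0.611 with an interval of 0.323 to 1.11.

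Among the genes higher in immune cells, some, such as the cytokine gene Ifng, were spread over many cells and others were not. Ifng (interferon gamma, the cytokine of T and natural killer cells) was at 31.3 CPM in VCD_E2, 29.9 in VCD_High_PBDE_E2 and 141 in VCD_E2_ICI, from 105 cells, of which the highest gave 9.01%. The other 11 libraries ranged from 25.6 to 83.2 CPM. Within T cell-like cells Ifng was at 113, 81.6 and 363 CPM, so it was higher within these cells too. The cytotoxic lymphocyte list was higher than in both E2 libraries in 9 of 16, beside 38.5% of all genes, with medians of 1.13 against VCD_E2 and 0.12 against VCD_High_PBDE_E2. Besides Ifng, only the chemokine gene Xcl1 was 2-fold higher than both (61.0, 50.1 and 140.0 CPM, named after its values were seen). The granzyme genes Gzmk (4.28, 34.7 and 30.7 CPM) and Gzma (504, 1219.8 and 576 CPM) did not share a direction against the 2 E2 libraries. T cell markers came to 1008 CPM with ICI against 381 in VCD_E2 and 627 in VCD_High_PBDE_E2. Natural killer cell markers came to 771 CPM against 621 and 1435 CPM. The part of the cell mix in the cytotoxic list was not tested. The highest ratio, that of the chemokine gene Ccl22 (10.2, 11.0 and 107 CPM), came from 1 cell that gave 89.4% of its 423 UMIs, and its log2 ratios were -1.52 and -0.35 in thinned cells. The endothelial genes Plvap (6.33, 1.72 and 36.1 CPM, from 2 cells) and Flt1 (5.77, 2.75 and 23.9 CPM, 79.8% from 1 cell, and at -0.15 on the log2 scale against VCD_E2 in thinned cells) went with endothelial markers that summed to 80.3 CPM against 36.3 and 21.6 CPM. For Cxcl9 (6.70, 0.686 and 26.7 CPM) 1 cell gave 81.0%.

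The other 7 of the 12 highest immune genes were spread more widely. Igfbp3 was at 3.72, 4.12 and 23.4 CPM (37 cells, the highest giving 21.7%) and was also the furthest of the higher genes in fibroblasts. Stromal marker lists in the immune sums went in different directions. The fibroblast markers came to 696 CPM with ICI against 786 in VCD_E2 and 913 in VCD_High_PBDE_E2, the Dpp4 fibroblast markers to 376 against 259 and 209 CPM, and the pericyte markers to 31.0 against 8.93 and 14.8 CPM. Their part in the values of Igfbp3, Procr, Cyr61 and Meg3 was not tested. The stem cell surface gene Procr was at 5.02, 4.80 and 21.6 CPM (30 cells), the matricellular gene Cyr61 at 18.05, 15.8 and 63.2 CPM (53 cells) and the long non-coding RNA gene Meg3 at 10.4, 1.37 and 34.0 CPM (21 cells). These 3 were within the range of the other libraries. Cyr61 and Meg3 did not keep their direction in cells thinned to 5000 UMIs, where the log2 ratios were -0.30 and -0.59 for Cyr61 and -0.50 against VCD_E2 for Meg3, and at 10% mitochondrial UMIs Meg3 was at -0.73 against VCD_High_PBDE_E2. Thinning also brought Procr to 0.60 and 0.22. The neutrophil surface gene Cd177 was at 7.63, 2.75 and 27.2 CPM (35 cells), and the neutrophil markers summed to 6318 CPM with ICI against 5810 and 1061 CPM. The proteoglycan gene Vcan was at 12.3, 8.92 and 41.1 CPM (37 cells) and the sulfotransferase gene Chst2 at 6.51, 8.58 and 28.2 CPM (63 cells), both the highest of the 12 libraries. Igfbp3, Procr, Cd177 and Chst2, like Plvap, Flt1 and Cxcl9, were under 10 CPM in both E2 libraries. They passed the 10 CPM limit on the mean only through VCD_E2_ICI.

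The hormone sets chosen on the 6 other libraries were small in immune cells. The hormone-raised set held Ccl8 and Ccl1, of which Ccl8 was lower than in both E2 libraries, beside 30.9% of all 7669 genes. Ccl1, a T cell chemokine, was at 53.4, 32.3 and 62.7 CPM from 15 cells. Of the 7 hormone-lowered genes, 2 were higher than in both, beside 38.6% of all genes. These were the actin-severing gene Gsn (627, 413 and 749 CPM) and the matrix-linked gene Sparcl1 (19.9, 18.9 and 36.1 CPM). Lower than in both were the mast cell genes Mcpt4 (210.1, 151 and 62.5 CPM), Tpsb2 (91.0, 89.9 and 55.1 CPM) and Mrgprb1 (14.0, 5.83 and 3.81 CPM), while Cyp11a1 and Gzmc lay between the 2 E2 libraries. The medians of the 7 were -0.71 and -0.51. The mast cell markers summed to 220.2 CPM with ICI against 612 and 387 CPM, within the range of 98.2 to 1501 CPM over the other libraries. The part of mast cells in these values was not tested. Thinning turned Cyp11a1 to 0.69 against VCD_E2, and with at least 2 Ptprc UMIs Mcpt4 was at 3.11 and Tpsb2 at 4.46 against VCD_High_PBDE_E2, all on the log2 scale.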

How the data were processed

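Single-cell RNA libraries of mouse mammary gland were made with 10x Chromium chemistry. The authors deposited a matrix of UMI counts per gene and barcode for each library, made with Cell Ranger 3.1.0 against mm10 per the labels. The values are unnormalized counts, 27998 genes in each of the 12 libraries. UMIs of the gated cells were summed per library and expressed as CPM, and log2 ratios used a pseudocount of 1 CPM. Of 58620 deposited barcodes, 46257 passed the filters. No doublet caller was run. Gates required other lineages' markers to be absent, immune cells that met more than 1 subset gate stayed unnamed, and leaving out the 5% deepest cells was an alternative.

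With 1 library per group no test was made, and genes were counted past 2-fold. Intervals were exact Poisson, exact conditional for ratios and exact Clopper-Pearson for shares, all at 95%. The counting step was tested on simulated data. The named genes were the 12 highest and 12 lowest by the smaller of both ratios, estrogen receptor targets and steroid receptors, up to 6 genes of each hormone set, and 2 to 4 extremes of each list. The members and lists were chosen with earlier results of these data known. A set of 10 alternatives was run, and 3 more for the immune shares were chosen after seeing the data. Coordinates of genes are of GRCm38. Tools were Python 3.11.15, numpy 2.4.6, scipy 1.17.1, pandas 2.3.3 and, for TMM factors, R 4.3.3 with edgeR 4.0.16.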

Additional observations from a re-analysis of the deposited data

Results flagged for a closer look

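Epithelial cells (at least 1 UMI of Epcam, at least 5 of Krt8 and Krt18 together, and none of Ptprc) took no part in the comparisons above, and their Areg transcript (amphiregulin, the growth factor by which estrogen acts on ducts) was above the level of the vehicle library in both E2 libraries without ICI. Areg was at 1176 CPM in VCD_E2 (1076 UMIs, 42 cells, 21 of them with Areg) and at 2169 CPM in VCD_High_PBDE_E2 (1332 UMIs, 9 cells). VCD_Vehicle had 100.0 CPM (19 UMIs, 11 cells, exact Poisson interval 60.2 to 156) and VCD_E2_ICI had 80.1 CPM (19 UMIs, 7 cells, 48.2 to 125). Intact mice, which the study describes as exposed to physiological E2, had 980 CPM from 5 cells. VCD_High_PBDE_E2_P4 departed from the other E2 libraries without ICI, with 57.9 CPM from 3 cells. Pgr in the same cells was at 169 CPM in VCD_E2, 195 in VCD_High_PBDE_E2, 38.0 in VCD_E2_ICI (9 UMIs) and 89.5 in VCD_Vehicle. The keratin gene Krt8 was also lower with ICI, at 4325 CPM in VCD_E2, 3799 in VCD_High_PBDE_E2 and 2315 in VCD_E2_ICI. The prolactin receptor gene Prlr was not, at 2368, 2117 and 2484 CPM in the same order. The mix of luminal and basal cells among so few was not tested. No outlying library could be called within a group, since each group is 1 library.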

How the results depend on the processing

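Under the alternatives 86 summary values kept their size and 36 moved, and of single-gene ratios 1478 kept it, 76 moved and 12 that were past 2-fold changed sign. Fibroblast genes tested numbered 19421 without a limit, 9553 at 5 CPM and 7765 to 7863 under the other alternatives. In fibroblasts, genes 2-fold lower than both E2 libraries numbered 55 with a limit of 5 CPM and 109 with none. With VCD_Low_E2 as the second E2 library they numbered 69. Those higher numbered 18 without a limit and 21 with VCD_Low_E2. Without a limit 266 were lower than VCD_E2. Hormone-raised genes lower than both were 97 of 103 without a limit, 21 of 24 in thinned cells and 20 of 23 without the deepest 5% of cells. Immune genes tested numbered 16538 without a limit, 9345 at 5 CPM and 7576 to 7714 under the other alternatives. In immune cells, without a limit 414 genes were higher and 405 lower than VCD_E2, and 160 higher and 116 lower than both. At 10% mitochondrial UMIs these were 54, 78 and, higher than both, 18. Lower than both were 63 (5 CPM), 68 (at least 2 Ptprc UMIs), 100 (thinned), 64 (VCD_Low_E2) and 26 (subsets weighted equally, with 88 lower than VCD_E2). Higher than both were 48 (5 CPM), 17 (2 Ptprc UMIs) and 45 (VCD_Low_E2). The hormone sets were made anew under each alternative. Immune hormone-raised genes lower than both were 2 of 3 with TMM factors, 5 CPM, a pseudocount of 0.5, 10% mitochondrial UMIs, thinning or equal weights, and 4 of 6 without a limit. Hormone-lowered ones higher than both were 1 of 6 (TMM), 1 of 10 (thinned) and 0 of 2 (equal weights). The T cell-like share was 35.2% in thinned cells.

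Signs turned in immune cells only, also for smaller ratios such as that of Tpsb2. Ccl22 was at -1.52 (VCD_E2) and -0.35 (VCD_High_PBDE_E2) when thinned, -0.47 (VCD_E2) without the deepest cells, and -0.87 and -1.12 with equal weights. Thinning gave Flt1 -0.15, Cyr61 -0.30, Meg3 -0.50 and Cyp11a1 0.69 against VCD_E2, and Cyr61 -0.59 against VCD_High_PBDE_E2. Meg3 was at -0.73 with 10% mitochondrial UMIs and Mcpt4 at 3.11 with 2 Ptprc UMIs, both against VCD_High_PBDE_E2. For Ccl22 and Flt1 1 cell gave most UMIs; other causes were not tested. VCD_Low_E2 was not used as second library for the hormone sets, which it helped to choose. No paired analysis was possible because each group is 1 library, and none could be left out. Depth limits Pgr, Greb1 and genes of macrophage-like cells, where VCD_E2_ICI gave 45 UMIs or fewer for Pgr, Greb1, Siglec1 and Ifit1.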
